A study of Mus musculus with 30 samples.

Results

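The genes of the cytosolic ribosomal proteins were followed in the primary visual cortex (V1) of mice at 3 ages. A member is a probe set with a single annotated gene symbol that opens with Rpl or Rps and a digit, or is Rplp0, Rplp1, Rplp2 or Rpsa, with the Rps6k kinases left out. The rule uses names and no signal. It held for 71 of the 36899 probe sets, which stand for 45 genes, 33 probe sets for the large subunit and 38 for the small subunit. Chip A holds 49 of them, chip B 2 and chip C 20. A further 52 probe sets list a ribosomal protein gene together with other symbols and are no members. In 2 cases the gene is no ribosomal protein in spite of its name: Rps19bp1 encodes a protein that binds RPS19, and Rpl7l1 a nucleolar relative of RPL7.

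The mice were reared under standard conditions and no genotype or treatment differs between the groups. V1 was cut out by hand from litters at postnatal day 14 (P14, 3 litters), day 28 (P28, 3 litters) and day 60 (P60, 4 litters). RNA of each litter went onto 3 Affymetrix array types, named MG-U74Av2 (chip A), MG-U74Bv2 (chip B) and MG-U74Cv2 (chip C), which makes 30 arrays. Strain, sex and the number of animals in a litter sample are not given in the sources used here. All p-values measure the spread between litters, the number of arrays limits the precision, and in such bulk tissue fewer cells of a type and less RNA per cell cannot be told apart.

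Ribosomal proteins are the protein part of the cytosolic ribosome and are made in matched amounts, since each ribosome carries nearly all of them in a single copy. In mammals their mRNAs mostly begin with a terminal oligopyrimidine (TOP) tract, a C at the cap followed by a run of C and T, through which the mTOR pathway sets how strongly they are translated. In growing neurons ribosomes are built in large numbers in the cell body, and ribosomal protein mRNAs are also found in dendrites and axons.

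The start of the transcript is the sequence feature that these genes are best known for, so 30 bases around the annotated start are printed for 4 members with a TOP tract and 3 without. A tract was counted where the annotated start is a C followed by at least 4 pyrimidines. It was searched on the gene's strand and stands in capitals. The sequences are RefSeq's, GRCm38.p6, written 5′ to 3′ on the gene's strand with 15 bases before the start.
Rps10, minus strand of chr17:27635230-27635259: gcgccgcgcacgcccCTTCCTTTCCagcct
Rps18, minus strand of chr17:33955651-33955680: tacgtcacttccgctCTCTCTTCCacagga
Rpl38, plus strand of chr11:114668565-114668594: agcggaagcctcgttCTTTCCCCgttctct
Rplp2, plus strand of chr7:141447636-141447665: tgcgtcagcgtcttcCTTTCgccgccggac
Rps7, minus strand of chr12:28635939-28635968: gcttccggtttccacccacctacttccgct
Rps3, minus strand of chr7:99483695-99483724: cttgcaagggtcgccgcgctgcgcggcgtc
Rplp0, plus strand of chr5:115559452-115559481: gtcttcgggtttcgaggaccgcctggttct

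The promoter table held 38 of the 45 member genes. A tract began at the annotated start of 8 of the 38, or 21.1%, against 813 of 27025 genes, or 3.01%, in the whole table. By start, 823 of 32851, or 2.51%, held one. The 8 are Rpl35a, Rpl38, Rplp2, Rps6, Rps10, Rps15a, Rps18 and Rps27. Without a match the letters are not at the annotated base, which says nothing of the cap site used in the cell. The Rpl7a window, for example, reads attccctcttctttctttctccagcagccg (plus strand of chr2:26910792-26910821), with a run of pyrimidines on both sides of the annotated start.

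Signals are MAS5 intensities, and every array's trimmed mean is near 500, so a level is relative to the other RNA on the array. Changes are differences of log2(signal + constant), with constants of 38.6 (chip A), 57.8 (chip B) and 44.0 (chip C). The test took the 20724 probe sets that exceeded the median of their chip type (207, 252 and 183) on 3 arrays or more. In limma's fit over these, with Benjamini-Hochberg adjustment and a threshold of 0.05, 0.00483% were called between P28 and P14, 0% between P60 and P28, 0.396% between P60 and P14, and 0.111% over the 3 ages (moderated F). Some arrays stand apart. In P14 litter 1 the ratio of 3′ to 5′ probe sets was 9.57 to 12.2 for Gapdh and 12.2 to 12.8 for Actb, against 0.741 to 1.32 and 1.04 to 1.5 on the other 27 arrays. The mean correlation with the other chip A arrays was 0.895 in P14 litter 1, 0.910 in P60 litter 1 and 0.923 in P60 litter 4, and at least 0.935 in each of the rest. On chip C the lowest was P60 litter 2, at 0.858.

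As a background, 15 Bacillus control probe sets per chip set a level, their 95th percentile, of 98.4 (chip A), 153 (chip B) and 252 (chip C). The mean signal of 45 members, for 34 genes, was above that level at each age, and that of 19 was below it at each age. The filter kept 46 members, for 35 genes, 21 of the large subunit and 25 of the small. A count over these 46 covers the brighter members only. The other 25 members, described further on, include every probe set of 10 genes: Rpl10l, Rpl27, Rpl35a, Rpl39, Rpl39l, Rpl3l, Rpl7l1, Rps15, Rps15a and Rps6.

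Ribosomal protein mRNA levels showed no change with age that passed the test. Of the 46 members, 0 were called in limma in each of the 3 comparisons and over the 3 ages. At an unadjusted p under 0.05 there were 3 between P28 and P14 (6.52%, against 7.87% of all tested), 0 between P60 and P28 (against 5.43%) and 3 between P60 and P14 (6.52%, against 15.7%). Rps20 was the member nearest to the threshold, at an adjusted p of 0.0617 in limma between P60 and P14.

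The changes of single members were mostly small. Between P28 and P14, 34 members had a positive and 12 a negative log2 change, with a median of 0.14, against 0.03 over all tested. Between P60 and P28 it was 16 and 30, with a median of -0.10 against -0.01. That median was -0.26 against -0.14 with each array's median set equal, and -0.0071 without P60 litter 3. Between P60 and P14 it was 28 and 18, with a median of 0.10 against 0.06, but -0.07 against -0.08 with each array's median set equal. A log2 change of under 0.5 in size was found for 42, 42 and 40 of the 46 in the 3 comparisons, or 91.3%, 91.3% and 87%, against 79.1%, 83.1% and 70.8% of all tested. The subunits' medians were 0.08 (large) and 0.15 (small) between P28 and P14, and 0.05 and 0.16 between P60 and P14. Neither subunit had a called member.

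The size that could have been seen is limited. The 95% interval of the log2 change lay within 1 unit of 0 for 24 of 46 members between P28 and P14, for 29 between P60 and P28 and for 28 between P60 and P14. Those are 52.2%, 63% and 60.9%, against 52.8%, 61.3% and 50.5% of all tested. For the other members a change of 2-fold in one direction or the other lies inside the interval.

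**Figure D1:**
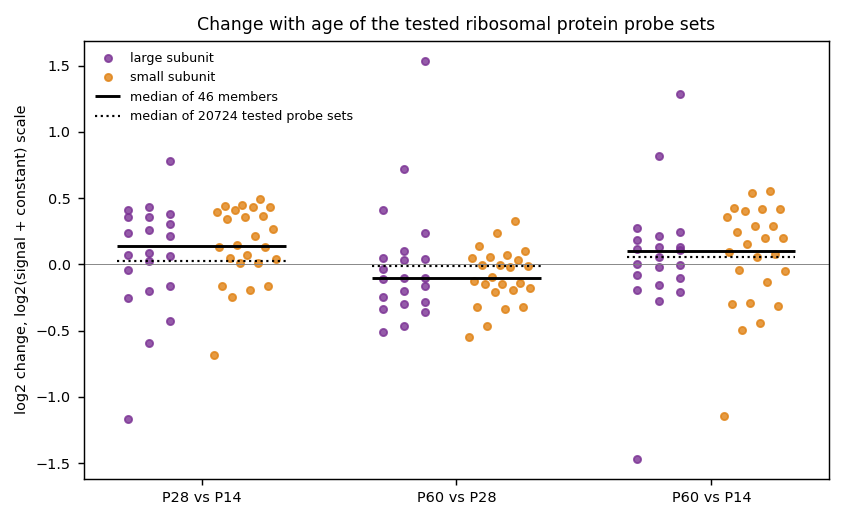
Log2 change (vertical axis, log2(signal + constant) scale) of each of the 46 tested members in the 3 comparisons (horizontal axis), large subunit in purple and small subunit in orange; the solid line is the members' median (0.14, -0.10 and 0.10) and the dotted line that of 20724 tested probe sets. Most points lie within 0.5 of 0, and the lowest points between P60 and P14 are Rplp0 (166005_f_at) at -1.47 and Rps20 (167494_f_at) at -1.14.

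P14 litter 1 bore on these medians. Without it, 44 members were tested and the median log2 change was 0.02 between P28 and P14, -0.11 between P60 and P28 and -0.01 between P60 and P14. At an unadjusted p under 0.05, 0 were then higher and 8 lower between P60 and P14 (18.2%). Of all tested it was 19.2%, 1778 higher and 2125 lower. Between P28 and P14, 1 was higher and 2 lower (6.82%, against 10.4%). Between P60 and P28, 0 were higher and 4 lower (9.09%, against 9.01%). The sign of the log2 change differed from that with all litters for 15 of the 44 between P28 and P14 and for 13 between P60 and P14. Rps4l was then called between P60 and P14, 1 of 44 members or 2.27%, against 2.44% of all tested. With limma's array weights, which keep every array but count the deviating ones less, 7 of 46 were called between P60 and P14 (15.2%, against 17.5% of all tested) and 3 over the 3 ages (against 14.6%). Of the 7, 6 were lower at P60 (Rplp0, Rpl10a, Rpl22, Rps4l, Rps20 and Rps19bp1, which is no ribosomal protein) and 1 was higher (Rpl32), while of all tested 1948 were lower and 1673 higher. Rpl10a (100711_at) was then at -0.63 (adjusted p = 0.0421 in limma) and Rps19bp1 (112788_at) at -0.65 (adjusted p = 0.0222), against -0.10 and -0.31 without weights. With the arrays that stand apart left out (P14 litter 1, P60 litters 1 and 4 on chips A and B, P60 litter 2 on chip C), 1 of 42 was called, again Rps4l, against 2.28% of all tested. In each setting the members' share was near that of all probe sets or below it.

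Few members separated the ages litter by litter. Between P28 and P14 all litters of the older age were higher for 3 of 46 members (9.45% of all tested) and lower for 2 (8.41%). Between P60 and P28 it was 0 higher (3.9%) and 1 lower (4.46%). Between P60 and P14 it was 2 higher (6.61%) and 2 lower (6.42%). In each case the members' share was below that of all tested probe sets.

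The stalk of the large subunit, built from RPLP0 with RPLP1 and RPLP2, binds the elongation factors. For Rplp0 on chip A (101213_at) the signals were 3894, 9536 and 8703 in the P14 litters, 8049, 6872 and 6728 at P28, and 5051, 7928, 5426 and 4780 at P60. P14 litter 1 was the lowest of the 10, and the other P14 litters lay above all P60 litters. The log2 change between P60 and P14 was -0.27 (SE 0.30, adjusted p = 0.684 in limma), and without P14 litter 1 it was -0.68 (adjusted p = 0.096). With array weights it was called, at -0.72 (adjusted p = 0.0147 in limma).

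A second Rplp0 probe set, on chip C (166005_f_at), gave the lowest log2 change of all 46 members. Its signals were 5282, 4046 and 2702 at P14, 2340, 1023 and 2030 at P28, and 1509, 526, 2098 and 2066 at P60. Each P14 litter was above each later litter, and P14 litter 1 was the highest. Between P28 and P14 the log2 change was -1.17 (SE 0.47, adjusted p = 0.578) and between P60 and P14 -1.47 (SE 0.44, adjusted p = 0.147 in limma). Without P14 litter 1 the second was -1.24 (adjusted p = 0.197), and with array weights -1.06 (adjusted p = 0.0536 in limma). Over 19 settings it lay between -1.72 and -0.81, with adjusted p from 0.0536 to 0.26. The lowest signal, 526, was that of P60 litter 2, whose array had the lowest correlation on chip C. The letter f in the name marks a probe set whose probes are shared within a family of similar sequences, so its reading of the Rplp0 level is uncertain. The remaining probe set, 170488_r_at, lay below the Bacillus level at every age.

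Rplp2 (169027_i_at) gave 6009, 5937 and 6125 at P14, 7373, 6250 and 7775 at P28, and 6821, 7562, 5447 and 6735 at P60. The P28 litters were above the P14 litters without overlap, but the log2 change was 0.24 (SE 0.20, adjusted p = 0.827 in limma), and the P60 litters overlapped both. Rplp1 was not analysed here.

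In the body of the large subunit the difference of Rpl8 went with a single litter. Rpl8, a protein near the peptidyl transferase centre, gave 1386, 6403 and 7967 at P14 (96575_at), 8028, 7210 and 6324 at P28, and 6439, 10800, 5955 and 6963 at P60. P14 litter 1 was far below the others, whose ages overlapped. The log2 change between P60 and P14 was 0.81 (SE 0.48, adjusted p = 0.421 in limma) and 0.04 without P14 litter 1. Rpl37a (93822_at) was also lowest in P14 litter 1, with 1750 there and 2397 to 7190 in the others, and its log2 change was -0.08, or -0.59 without that litter (adjusted p = 0.257 in limma).

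Rpl32, which is often used as a reference gene for mRNA levels, had 1 member (160478_r_at), with the highest log2 change of the 46 between P60 and P14. It gave 214, 33.1 and 71.6 at P14, 30.5, 89.3 and 95.02 at P28, and 1262, 25.7, 61.8 and 1018 at P60. P60 litters 1 and 4 stood far above the other 8 litters, and the P28 mean lay below the Bacillus level. The log2 change between P60 and P14 was 1.28 (SE 0.96, adjusted p = 0.53 in limma), and 2.34 with array weights (adjusted p = 0.0338). The chip A arrays of these litters had, after that of P14 litter 1, the lowest correlations with the rest. The probe set was too dim to be tested without P14 litter 1, and too dim without all the arrays that stand apart.

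Among other large subunit proteins Rpl13a and Rpl7 had values near 0. Rpl13a, a second common reference gene (92834_at), gave 743, 576 and 547 at P14, 732, 557 and 666 at P28, and 614, 779, 583 and 730 at P60. The ages overlapped, and the log2 change between P60 and P14 was 0.12 (SE 0.20), with a value of -0.08 when each array's median was set equal. Rpl7 (97695_s_at) gave 6644, 5735 and 5124 at P14, 6643, 5334 and 5856 at P28, and 5747, 6996, 5080 and 5517 at P60, with a log2 change of -0.00 (SE 0.19). Rpl19 (97483_at), Rpl6 (96962_at) and Rpl7a (98168_at) had log2 changes between -0.02 and 0.11 between P60 and P14. P14 litter 1 was the lowest of the 10 for Rpl6, at 2616, and for Rpl7a, at 2127, and without it the log2 changes were -0.39 and -0.31 (adjusted p = 0.297 and 0.376 in limma), while Rpl19 was at -0.02. Rpl13 (169415_at) varied most among these, from 163 in P28 litter 3 to 1732 in P60 litter 2. Its log2 change was -0.59 (SE 0.62) between P28 and P14, 0.72 (SE 0.58) between P60 and P28 and 0.13 (SE 0.58) between P60 and P14.

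In the small subunit Rps20 gave the clearest order with age. RPS20 sits in the head of the subunit. Its chip C probe set (167494_f_at) gave 34060, 24810 and 21180 at P14, 17530, 14340 and 17260 at P28, and 14820, 9737, 9997 and 13490 at P60. All P14 litters were above all P28 and P60 litters, while P28 and P60 overlapped, since P60 litter 1 was above P28 litter 2. The log2 change was -0.68 (SE 0.26, adjusted p = 0.526) between P28 and P14, -0.46 (SE 0.24, adjusted p = 0.894) between P60 and P28 and -1.14 (SE 0.24, adjusted p = 0.0617 in limma) between P60 and P14, with a 95% interval from -1.67 to -0.62.

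The Rps20 difference did not rest on P14 litter 1 alone. Without that litter the log2 change between P60 and P14 was -0.95 (adjusted p = 0.0521 in limma), and it lay between -1.30 and -0.83 over 19 settings, with adjusted p from 0.0127 (array weights) to 0.161. This probe set also carries the letter f. The 2 other Rps20 probe sets, 94039_at and 171542_at, were too dim to be tested and showed no such order: 94039_at gave 16.8 to 66.3 at P14 and 84.7 to 159 at P60.

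Rps4l, a copy of Rps4x, was lower at P60 than at P28 in every litter. Its probe set (98149_s_at) gave 167, 503 and 637 at P14, 404, 380 and 410 at P28, and 286, 284, 232 and 243 at P60. P14 litter 1 was the lowest of the 10, and the other P14 litters were the highest. The log2 change was -0.55 (SE 0.34, adjusted p = 0.897) between P60 and P28 and -0.50 (SE 0.34, adjusted p = 0.489 in limma) between P60 and P14. Without P14 litter 1 the second was -1.02 and was called (adjusted p = 0.0284 in limma). It was called with array weights too (-0.999, adjusted p = 0.0063), and with the arrays that stand apart left out (-1.03, adjusted p = 0.0318). The letter s marks a probe set shared by several transcripts, so Rps4x and its copies could contribute.

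Rps4x itself, an X-linked protein of the small subunit, did not differ beyond its spread. Its main probe set (100780_at) gave 8302, 7204 and 6035 at P14, 8364, 7468 and 6744 at P28, and 5943, 9745, 6193 and 6226 at P60. The ages overlapped, with P60 litter 2 the highest of all. The log2 change between P60 and P14 was -0.05 (SE 0.22, 95% interval -0.54 to 0.44), and 0.12 after quantile normalization.

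**Figure D2:**
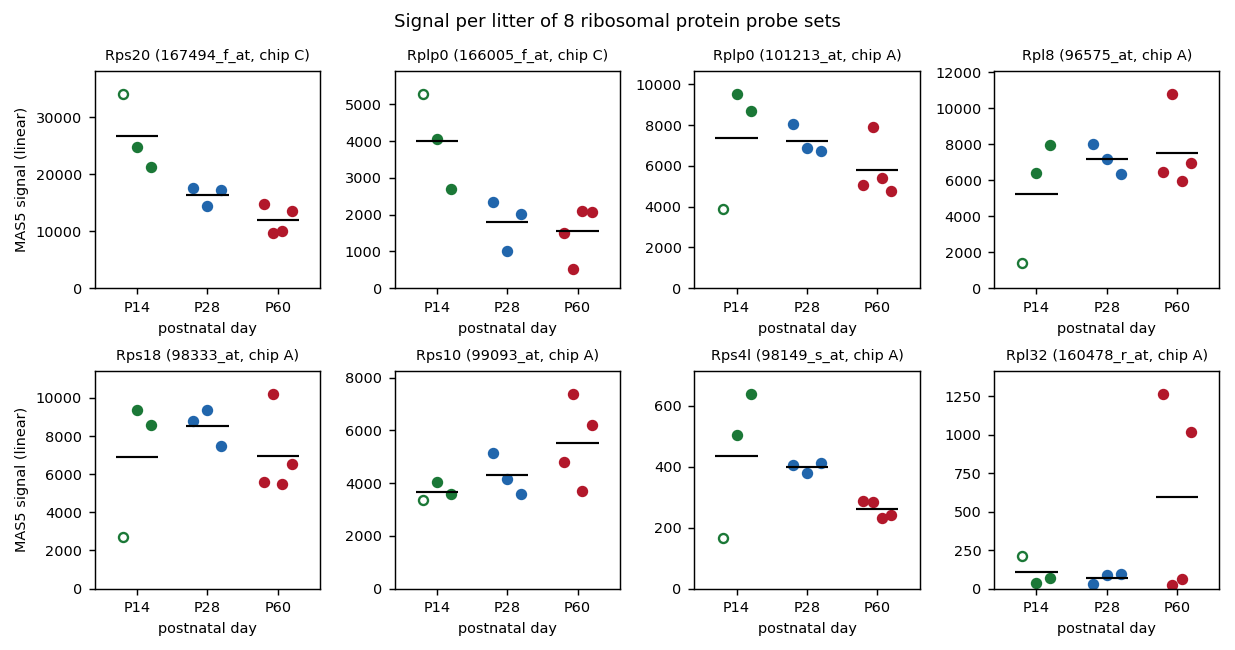
MAS5 signal (vertical axis, linear, starting at 0) per litter against age for 8 member probe sets; each point is a litter, the line is the mean of the age, and the open symbol is P14 litter 1. Rps20 and the chip C probe set of Rplp0 were highest in the 3 P14 litters, P14 litter 1 lay lowest for Rplp0 on chip A, Rpl8, Rps18, Rps10 and Rps4l, and Rpl32 was high in P60 litters 1 and 4.

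Rps10, Rps3, Rps7 and Rps19 had the largest positive log2 changes of the small subunit between P60 and P14. Rps10 (99093_at) gave 3378, 4048 and 3601 at P14, 5158, 4159 and 3572 at P28, and 4789, 7375, 3716 and 6211 at P60. The P60 litters reached higher, but P60 litter 3 lay within the P14 range, and the log2 change was 0.54 (SE 0.25, adjusted p = 0.314 in limma; 0.48 without P14 litter 1).

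Rps7 (101212_at) gave 4047, 6730 and 6762 at P14, 9425, 7582 and 6425 at P28, and 7476, 8283, 7295 and 7424 at P60. All P60 litters were above all P14 litters. The log2 change was 0.42 (SE 0.23, adjusted p = 0.386 in limma) and 0.17 without P14 litter 1. Rps3, whose protein lines the mRNA entry, showed 0.43 on chip A (101137_at) and 0.16 without P14 litter 1.

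A second Rps3 probe set (168181_i_at, chip C) gave 1461, 1772 and 1604 at P14, 2277, 2278 and 2050 at P28, and 1790, 2273, 1826 and 2065 at P60. Every later litter was above every P14 litter. The log2 changes were 0.44 (SE 0.20, adjusted p = 0.619) between P28 and P14 and 0.29 (SE 0.19, adjusted p = 0.452 in limma) between P60 and P14. The remaining one (168976_i_at) gave 0.09, and its ages overlapped.

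Rps19 (94068_at) gave 736, 1592 and 1524 at P14, 1941, 1425 and 1700 at P28, and 1562, 2289, 1539 and 1923 at P60. P14 litter 1 was the lowest, and without it the log2 change between P60 and P14 went from 0.55 to 0.21. For Rps18 (98333_at), with 2715, 9360 and 8576 at P14, the change between P28 and P14 went from 0.49 to -0.08. Rps26 (137217_f_at) had a negative value, -0.44 (SE 0.24, adjusted p = 0.383 in limma), and its ages overlapped. Rpsa, the laminin receptor protein of the small subunit (97750_at), gave 1116 in P14 litter 1 and 1811 to 3131 in the other litters, with a log2 change of 0.06, or -0.41 without P14 litter 1.

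Paralogues of ribosomal proteins were mostly dim. Rps27l, which p53 induces, had a tested probe set (171524_at) with 411, 250 and 344 at P14, 434, 417 and 451 at P28, and 425, 642, 353 and 437 at P60. The P28 litters were above the P14 litters, and the log2 change was 0.36 (SE 0.30, adjusted p = 0.827 in limma) there and 0.42 between P60 and P14. For its relative Rps27 (96301_at) the log2 change between P60 and P14 was 0.29 (SE 0.21). P14 litter 1 was the lowest of the 10 for Rps27, at 688.7, and without it the value was 0.07. Rpl3l, known from muscle, and Rpl10l, known from testis, lay below the Bacillus level at every age, as did Rpl39. Rpl39l, also known from testis, lay above it at 1 age only, P60, with 180, 86.9, 21.1 and 191 in the 4 litters.

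Rps6, whose phosphorylation by the S6 kinases is a common readout of mTOR signalling, had 1 member (135194_at), with 30.4 to 96.2 over the 10 litters and every age mean below the Bacillus level. Its mRNA could not be followed here. Rplp1, Rps27a, Rpl10, Rpl22l1, Rpl3, Rpl36a and Rpl36al were not analysed here.

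Among the 17 chip A members too dim to be tested, 8 (47.1%) were higher in both P60 litters 1 and 4 than in each of the other 8 litters. Over all such chip A probe sets it was 22.8%. The 8 are probe sets of Rpl38, Rpl39l, Rpl7, Rpl7l1, Rps27l and, 3 times, Rps4x, and among the 32 tested chip A members the same held only for Rpl32 (3.12%, against 14.8% of all tested chip A probe sets). The part of the arrays in this was not tested.

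Probe sets of the same gene could differ in sign. Of 8 genes with 2 or more tested probe sets, 4 (Rpl10a, Rpl22, Rps28 and Rps4x) had log2 changes of both signs between P60 and P14, and the median gap between the lowest and the highest was 0.358. That gap is close to the median SE of a member's log2 change, 0.284, and differences between probe sets of a gene were not tested. The widest gap was that of Rplp0, at 1.19. Rpl22, a protein with a known role outside the ribosome in lymphocytes, gave 0.19 (92856_at), -0.21 (92857_at) and -0.19 (170901_i_at), each with an SE between 0.38 and 0.58. The second gave 176 in P14 litter 1 against 785 and 566 in the other P14 litters. Without that litter its log2 change was -0.78 (adjusted p = 0.0985 in limma), and with array weights it was called, at -0.75 (adjusted p = 0.036). Rps28 gave 0.08 (100758_at), -0.30 (98085_f_at) and -0.29 (98086_r_at). Of the 3 Rpl38 probe sets only 169427_i_at was tested, at 0.05 (SE 0.38).

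The members' levels differed between litters of the same age. The member score is the mean over the 46 tested members of the log2 value in a litter minus that probe set's mean over the 10 litters. It was -0.26, 0.06 and 0.04 in P14 litters 1 to 3, 0.19, 0.05 and -0.08 at P28, and 0.07, 0.13, -0.29 and 0.10 at P60. The lowest scores were those of P60 litter 3 and P14 litter 1, and the ages overlapped.

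In P14 litter 1, 20 of 46 members (43.5%) had their lowest value of the 10 litters, against 23.8% of all tested probe sets. In P60 litter 2, 17 (37%) had their highest, against 13.4%, and in P60 litter 3, 11 (23.9%) had their lowest, against 8.25%. The 46 tested probe sets that list a ribosomal protein gene with further symbols, which are no members, were lowest in P60 litter 3 in 16 cases and highest in P60 litter 2 in 15. Their score was -0.37 in P60 litter 3 and 0.19 in P60 litter 2. The median within-age SD of the log2 values was 0.397 for members and 0.384 for all tested, and 0.292 and 0.319 without P14 litter 1.

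**Figure D3:**
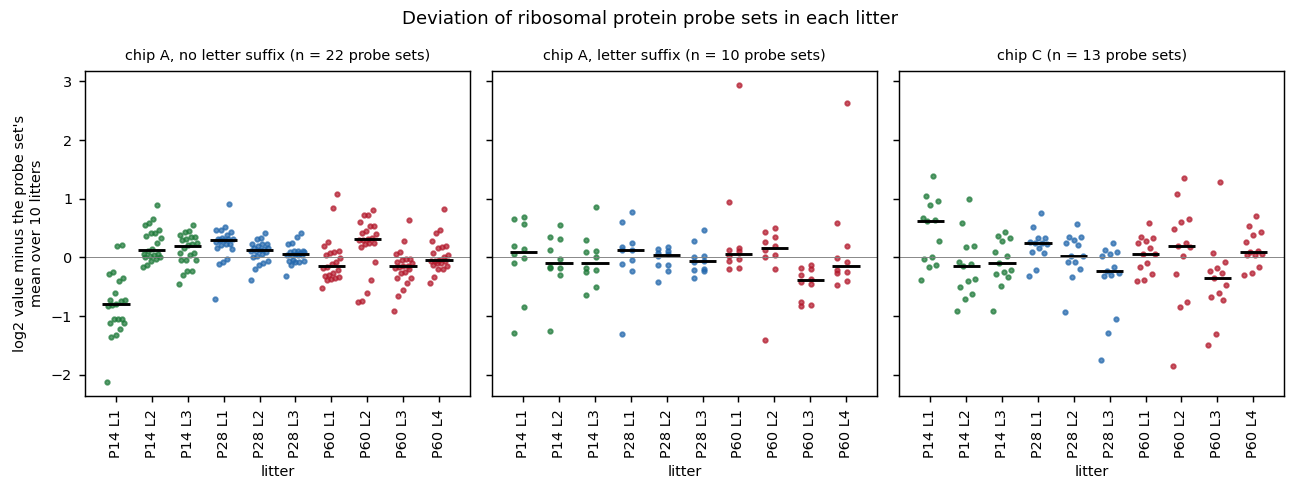
Log2 value minus the probe set's mean over the 10 litters (vertical axis) by litter (horizontal axis, L for litter), for the 22 tested members of chip A without a letter suffix, the 10 with one and the 13 of chip C; points are probe sets and bars are medians. In P14 litter 1 the median is -0.79 in the left panel and 0.62 in the right panel.

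P14 litter 1 differed in opposite directions between kinds of probe set. Against the mean of the other P14 litters, 20 of the 22 tested chip A members without a letter suffix were lower, with a median of -0.996, and 11 of 22 (50%) were lower by more than 1. Over all tested chip A probe sets of that kind the median was -0.05 and 17.6% were lower by more than 1. The 22 tested chip A probe sets without a letter suffix that list a ribosomal protein gene with further symbols lay between, with a median of -0.07, 14 lower, and 31.8% lower by more than 1. Among the 13 tested chip C members 10 were higher, with a median of 0.57, and over all tested chip C probe sets the median was -0.01. The 10 tested chip A members with a letter suffix had a median of 0.27. In P14 litter 1 the 3′ to 5′ ratio for Gapdh was 12.2 (chip A) and 9.57 (chip C). On the other 27 arrays that ratio was 0.741 to 1.32. The part of the 3′ to 5′ ratios in these values was not tested.

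Members with and without a TOP tract at the annotated start overlapped in their values. The 5 tested probe sets of genes with a tract at the annotated start (Rpl38, Rplp2, Rps10, Rps18 and Rps27) had median log2 changes of 0.24 between P28 and P14, -0.11 between P60 and P28 and 0.16 between P60 and P14. The 34 tested probe sets of matched genes without one had 0.11, -0.12 and 0.07. The values of the 5 between P60 and P14 ran from 0.05 to 0.54, and those of the 34 from -1.47 to 0.55. With 5 probe sets against so wide a range, the overlap cannot show that the groups were alike. A difference between them was not tested.

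The other genes of ribosome production and translation had 0 called in limma in every list and comparison with all litters. Without P14 litter 1 there were 4 between P60 and P14: Mrpl34 and Mrpl48 of 66 mitochondrial ribosomal proteins (3.03%), Nop10 of 44 biogenesis genes (2.27%) and Eif1ax of 32 initiation and mTOR genes (3.12%), against 2.44% of all tested. With array weights the same 3 lists had 10, 3 and 8 called (15.2%, 6.82% and 25%) and the TOP list 3 of 16 (18.8%), against 17.5% of all tested. Of 66 tested genes of mitochondrial ribosomal proteins, 45 had a positive log2 change between P28 and P14, with a median of 0.17. Of all 20724 tested, 10968 were positive there. At an unadjusted p under 0.05 there were 6 of the 66 (9.09%, against 7.87% of all tested). Between P60 and P28, 51 of the 66 were negative, with a median of -0.16, and 10578 of all tested. There 5 had an unadjusted p under 0.05 (7.58%, against 5.43%). Mrps5 at -1.17 (adjusted p = 0.175), Mrps11 at 0.96 (adjusted p = 0.211) and Mrpl40 at -0.77 (adjusted p = 0.149 in limma) had the largest log2 changes between P60 and P14. Mrps11 was at 0.46 without P14 litter 1. The score of the mitochondrial list was 0.05 to 0.17 at P28 and -0.14 to 0.01 at P60, without overlap. At P14 it was -0.29, 0.07 and 0.01 in litters 1 to 3, so litter 2 lay within the P28 range.

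Ribosome biogenesis genes, which make rRNA and assemble the subunits, had medians of 0.05, -0.06 and 0.03 over 44 genes in the 3 comparisons. Mybbp1a was at 1.24 (adjusted p = 0.251), Ubtf, the polymerase I factor, at 0.86 (adjusted p = 0.165) and Polr1d, a polymerase subunit, at 0.72 (adjusted p = 0.494 in limma) between P60 and P14. Mybbp1a (161287_f_at) gave 379 and 527 in P60 litters 1 and 4, against 215.5 and 91.1 in P60 litters 2 and 3. Its P14 mean, 91.6, lay below the Bacillus level. Without P14 litter 1 Ubtf was at 0.56 and Polr1d at 0.08. At an unadjusted p under 0.05 there were 0, 4 and 3 of 44 (0%, 9.09% and 6.82%, against 7.87%, 5.43% and 15.7% of all tested).

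Among 16 translation factors and other genes whose mRNAs are known to carry TOP tracts, Eef1b2, an exchange factor of elongation (96624_r_at), had a log2 change of -1.26 (adjusted p = 0.146) and its partner Eef1d 1.11 (adjusted p = 0.111 in limma) between P60 and P14. Eef2, the translocation factor of elongation, followed at 0.66 (adjusted p = 0.601), but P14 litter 1 gave 886.6 against 4614 to 7862 in the others, and without it the value was -0.36 (adjusted p = 0.322 in limma). The list's medians were 0.02, -0.04 and -0.07. At an unadjusted p under 0.05 there were 0, 0 and 2 (0%, 0% and 12.5%, against 7.87%, 5.43% and 15.7% of all tested).

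For 32 genes of translation initiation and mTOR signalling the medians were -0.09, 0.01 and -0.10. At an unadjusted p under 0.05 there were 2, 2 and 7 (6.25%, 6.25% and 21.9%, against 7.87%, 5.43% and 15.7% of all tested). Rptor, the raptor subunit of mTORC1, was at 1.16 (adjusted p = 0.43), Eif1ax, an initiation factor, at -1.15 (adjusted p = 0.124) and Mycn, which drives ribosome production in progenitors, at -1.05 (adjusted p = 0.262 in limma). Without P14 litter 1 Rptor was at 0.57, and Eif1ax was called at -1.35 (adjusted p = 0.0459 in limma). Eif1ax gave 234.8 and 310.1 in P60 litters 1 and 4, against 477.8 and 668.8 in P60 litters 2 and 3. Mycn gave 140.6 and 41.1 in P60 litters 1 and 4, the second below the Bacillus level. It gave 249.6 and 292.9 in P60 litters 2 and 3, against 264.9 to 445.2 at P14. Eef1a2, the elongation factor form of mature neurons and muscle, was at 0.89 (SE 0.57, adjusted p = 0.457). That value rested on P14 litter 1, with 2600 against 16650 and 22950 in the other P14 litters and 15120 to 26380 at P60, and it was -0.07 without it (adjusted p = 0.886 in limma).

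**Figure D4:**
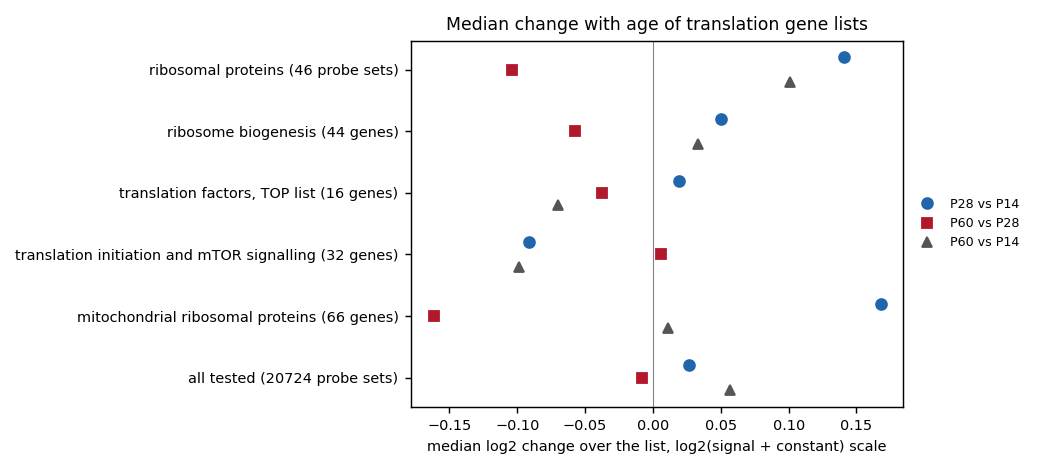
Median log2 change (horizontal axis, log2(signal + constant) scale) of the ribosomal protein probe sets, of 4 lists of translation genes (1 probe set per gene) and of all tested probe sets (vertical axis), with a symbol per comparison. The mitochondrial ribosomal proteins lie at 0.17 between P28 and P14 and at -0.16 between P60 and P28, and the cytosolic ones at 0.14 and -0.10.

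Cell type markers showed what else differed between these samples. Of 9 tested markers of cortical excitatory neurons, Slc17a7, Tbr1, Nrgn and Rorb were bright at every age. Rorb had means of 6500, 3470 and 2960 at P14, P28 and P60, and those of Cux1 and Fezf2 were 974 to 1290. Rorb had the largest log2 change of the list between P60 and P14, -1.10 (adjusted p = 0.146 in limma). Of the 9, 6 were negative there and 3 positive. The remaining markers were dim, with means at P14, P28 and P60 of 193, 245 and 167 for Cux2. Neurod6 had 242, 214 and 274, and Camk2a 530, 348 and 257. With all litters, 9 of 9 had no call. Of 8 tested mature oligodendrocyte markers, Mag rose between P14 and P60 (log2 change 1.51, SE 0.28, adjusted p = 0.0461 in limma). The log2 change between these ages was positive for 7 of the 8 and negative for Ugt8a, at -0.54 (adjusted p = 0.539 in limma). Of 4 tested meningeal and fibroblast markers Igf2 fell by 1.79 between the same ages (SE 0.20, adjusted p = 0.00937 in limma). The summed signal of the meningeal list was 9488 to 10230 at P14 and 4823 to 5909 at P60, the same order as Rps20 and the chip C probe set of Rplp0. Igf2 alone gave 5914 to 6386 of that sum at P14 and 1307 to 2099 at P60. Of the 4 genes, 3 had a negative log2 change between P60 and P14, and Col1a2 a positive one, 0.29. That of the oligodendrocyte list was 5696 to 12410 at P14 and 12020 to 16780 at P60. The other 10 cell type lists had no called gene with all litters. Over all cell type lists, 10 genes of 5 lists were called between P60 and P14 without P14 litter 1: Tbr1, Gad1, Gad2, Mag, Mal, Mbp, Mobp, Cldn5, Col1a1 and Igf2. They were 1 of 9 excitatory neuron markers (11.1%), 2 of 9 interneuron markers (22.2%) and 4 of 8 mature oligodendrocyte markers (50%). The endothelial list had 1 of 7 (14.3%) and the meningeal list 2 of 4 (50%), against 2.44% of all tested. With all litters Gad2, Cldn5, Col1a1 and Igf2 had negative log2 changes between these ages, and the other called genes positive ones. The part of these cells in the ribosomal protein values was not tested.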

How the data were processed

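The deposited values are linear intensity signals for each probe set on each array. The authors calculated them with MAS5, per the submitters' processing notes, in a version not given in the sources used here. They were not rescaled. Symbols came from the platform annotation, brought up to date by gene ID for 99.7%. Members, lists and comparisons were chosen with earlier results of these data known.

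Each chip type was fitted with limma 3.58.1 in R 4.3.3 (lmFit, eBayes with a variance trend) on log2(signal + the 20th percentile), with all 10 litters and age as the only term. Probe sets above the median on at least 3 arrays entered, and p-values were adjusted over the 3 chip types together (Benjamini-Hochberg, 0.05). Tested on simulated data for P60 against P14, 20564 probe sets, the fit recovered 19.8% of 91 probe sets changed by 1 log2 unit and 81.1% of 95 changed by 2, with 4 false calls. The simulated noise was independent between probe sets, with the same SD in all litters of a probe set. It held no deviating litter such as P14 litter 1, so these figures need not hold for the real data.

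Named members are those called, the 10 largest changes between P60 and P14, the 6 largest in each other comparison, stalk proteins, reference genes, paralogue pairs, and genes with 3 or more probe sets, and 3 genes of each pathway list. Others are named after their values were seen. For pathway and cell type lists 1 probe set per gene was kept. Every sample title opens with litter 1 and then gives a second number, which was taken as the litter. The 27 correlations between the deviations of same-numbered litters of different ages ran from -0.08 to 0.16, with 4 over 0.1. With so few litters they cannot show whether such litters belong together. Alternatives were the constant, the filter, quantile and median scaling, array weights, a replicate block, left-out litters and arrays, and narrower or wider member sets.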

Additional observations from a re-analysis of the deposited data

Results flagged for a closer look

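Among the 4 P60 litters, Rps4x (100780_at) had a signal of 9745 in litter 2, against 5943 to 6226 in the other 3. Rps20 (171542_at) had 210.7 in litter 2, against 6.27 to 34.7. Rps6 (135194_at) had 66.4 in litter 3, against 51.1 to 52.5, all below the Bacillus level, as are those of Rps20 (171542_at). The member score of litter 3 was -0.29, apart from the other P60 litters at 0.07 to 0.13. In each case the gap to the nearest litter was larger, as a share of the range, than Dixon's critical value for 4 litters. Of 48 sets of P60 values looked at 4 stood out so, and chance marks about 1 in 20 such sets.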

How the results depend on the processing

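In limma 0 members were called in each comparison under 2 other constants, no filter, both scalings, narrower and wider member sets and the replicate block. Between P60 and P14 array weights called 7, and 3 over the 3 ages, and leaving out the arrays that stand apart called 1. Leaving out a litter gave 0 to 1, the 1 without P14 litter 1. The median log2 change between P60 and P14, 0.10, was -0.0964 without the arrays that stand apart and ran from -0.0944 (without P60 litter 2) to 0.20 without a litter. Between P60 and P28 it was 0.04 without the filter, where all probe sets had 0.07, -0.26 with median scaling, where all had -0.14, and -0.0071 without P60 litter 3. With the replicate block the P60 against P14 median was 0.08, and 0 of all tested probe sets were called there, against 82 without it. Whether same-numbered litters of different ages belong together is not settled by these values.

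Several named members changed sign, between P60 and P14 unless another comparison is named. With all litters Rps18 was at 0.49 and Rpl13 at -0.59 between P28 and P14 and Rps4x (161654_r_at) at 0.40, and the others listed here were nearer to 0. Quantile normalization gave Rpl7 0.143, Rps4x (100780_at) 0.121 and Rpl38 -0.0466. Median scaling gave Rpl13a -0.0814, Rpl22 (92856_at) -0.0129, Rpsa -0.141, Rpl38 -0.0526 and Rps28 (100758_at) -0.119. Array weights gave Rpl22 -0.152 (92856_at) and 0.232 (170901_i_at), Rpl7 0.0756, Rps4x 0.0079, Rpsa -0.428, Rps28 -0.132 and, between P28 and P14, Rps18 -0.0621. The replicate block gave Rpl7 0.0215 and Rpl38 -0.0512. Without the arrays that stand apart Rpl22 had -0.871 and 0.0315, Rpl7 0.136, Rps4x 0.236, Rpsa -0.204, Rps28 -0.432 and, between P28 and P14, Rps18 -0.076. Over left-out litters the values ran from -0.327 to 0.529, -0.783 to 0.186 and -0.479 to 0.311 for Rpl22 (92856_at, 92857_at, 170901_i_at), -0.092 to 0.0954 for Rpl7, -0.217 to 0.0599 and -0.106 to 0.593 for Rps4x (100780_at, 161654_r_at), -0.411 to 0.318 for Rpsa, -0.208 to 0.36 for Rps28, -0.342 to 0.431 for Rpl38, and, between P28 and P14, -0.076 to 0.81 for Rps18 and -1.11 to 0.0485 for Rpl13. The cause was not tested. The member sets limited to those above the Bacillus level or widened by probe sets of several symbols were chosen after seeing the data, as were the counts of called pathway and cell type genes without P14 litter 1 and with array weights.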
